A study of Mus musculus with 2 samples.

Results

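The cells described here were the 995 of 9950 kept passage 5 pericytes (PCs) with the highest summed share of UMIs from *Cyp26b1*, *Fbn2*, *Hgf*, *Ebf2* and *St8sia1*. The score of a cell was the UMIs of these 5 genes over its total UMIs, the top 10% of cells were taken, and ties were broken by file order. They are called high-score cells, and the remaining 8955 kept passage 5 cells are called the other cells. Because these 5 genes chose the cells, their levels are a description and carry no test. A UMI, or unique molecular identifier, tags a single captured RNA molecule.

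The study sequenced cultured primary brain PCs of wild-type female C57BL/6N mice as single cells in droplets, and passages 5 (PC5) and 20 (PC20) gave 1 library each. By the methods each passage came from its own isolation, with the brains of 6 mice aged 6 to 8 weeks pooled, while the deposited design text speaks of only 1 isolation. Passage and isolation cannot be told apart, and the pooled animals cannot be separated. The filter asked for over 1000 genes and less than 20% of UMIs from mitochondrial genes, and it kept 9950 of 10629 PC5 barcodes with a median of 21700 UMIs and 4749 of 4884 PC20 barcodes with a median of 33424 UMIs. With 1 library per passage there were no replicates. No p-value is given, and intervals at the 95% level cover counting error only. The libraries shared 20 barcodes, of which 0 belonged to high-score cells.

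PCs are mural cells that wrap capillaries, share the basement membrane with the endothelium and support the blood-brain barrier. *Cyp26b1* encodes an enzyme that breaks down retinoic acid, a small lipid signal that acts through nuclear receptors. *Fbn2* encodes fibrillin 2, a microfibril protein of elastic fibres, and *Hgf* encodes hepatocyte growth factor, the secreted ligand of the receptor MET. *Ebf2* encodes a transcription factor of mesenchymal lineages, and *St8sia1* encodes the sialyltransferase that makes ganglioside GD3.

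All 5 genes are protein coding, and positions are given here on GRCm38 with GENCODE M21, the mm10 assembly. *Cyp26b1* (ENSMUSG00000063415) lies on chromosome 6 from 84571414 to 84593908 on the minus strand. *Fbn2* has the identifier ENSMUSG00000024598, and *Hgf* (ENSMUSG00000028864) lies on chromosome 5 from 16553495 to 16620152. *Ebf2* (ENSMUSG00000022053) lies on chromosome 14 from 67233292 to 67430918, and *St8sia1* (ENSMUSG00000030283) on chromosome 6 from 142821545 to 142964452.

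The sequences upstream of *Cyp26b1* and *St8sia1* are shown because these genes had the most score UMIs in the largest numbers of high-score cells. The sequences are from RefSeq on GRCm38.p6, written 5′ to 3′ on the minus strand, and stop before the first annotated base of the transcript. Capitals mark AGGTCA, the half-site bound by retinoic acid receptors and many other nuclear receptors, searched on both strands.
Cyp26b1, chr6:84593909-84594060: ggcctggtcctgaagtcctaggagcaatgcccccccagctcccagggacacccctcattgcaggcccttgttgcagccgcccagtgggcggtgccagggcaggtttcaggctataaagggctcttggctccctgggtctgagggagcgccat
St8sia1, chr6:142964453-142964702: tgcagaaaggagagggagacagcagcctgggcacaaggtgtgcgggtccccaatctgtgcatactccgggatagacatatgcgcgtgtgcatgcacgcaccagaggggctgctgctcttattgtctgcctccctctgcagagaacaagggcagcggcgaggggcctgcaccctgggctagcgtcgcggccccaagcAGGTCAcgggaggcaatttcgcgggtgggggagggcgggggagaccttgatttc
The *Cyp26b1* stretch of 152 bases held 0 matches and the longer *St8sia1* stretch of 250 bases held 1. AGGTCA was present in the 250 bases before the start of 13.8% of 27025 genes in the table, and of 3 among the 25 named genes that the table held.

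The score separated a range and not a distinct class of cells. The lowest score inside was 3.39 UMIs per 10000 and the highest score outside was also 3.39, with 174 high-score cells within 10% above that limit and 220 other cells within 10% under it. The median score was 4.66 in high-score cells, with a highest value of 19.6, and 0.686 in the other cells. A score of 0 was found in 2770 cells, 27.8% of those kept. High-score cells held a median of 10 UMIs of the 5 genes, from 1 to 80, and the other cells a median of 1. There were 88 high-score cells with under 5 such UMIs, so the place of these cells rests on few molecules. Only 1 PC20 cell reached the limit, and 221 PC20 cells (4.65%) had any UMI of the 5 genes.

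Most of the score came from *Cyp26b1*. It gave 72.7% of the score UMIs in high-score cells and was the single most counted of the 5 genes in 728 of them (73.2%). *St8sia1* led 103 cells, *Fbn2* 75, *Hgf* 25 and *Ebf2* 22, and 42 cells had a tie. UMIs of only *Cyp26b1* were found in 258 high-score cells. UMIs of at least 3 of the 5 genes were found in 36.2% of high-score and 11.1% of other cells, and UMIs of all 5 in 17 high-score cells. High-score cells held 49.0% of all *Cyp26b1* UMIs of the kept PC5 cells, but 31.1% of those of *Fbn2*, 25.0% of *St8sia1*, 21.6% of *Hgf* and 16.4% of *Ebf2*. The name *Cyp26b1*, *Fbn2* and *Hgf* cells therefore fitted the first gene better than the others.

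Levels are given as CPM, the UMIs of a gene summed over a group of cells and scaled to a group total of 1000000 UMIs. *Cyp26b1* had 393 CPM (385 to 402) in high-score cells, 44.3 in the other cells and 1.18 in PC20. *Fbn2* had 51.2 CPM in high-score cells, 12.3 in the other cells and 0.371 in PC20. *St8sia1* followed with 49.3, 16.1 and 0.0105 CPM in the same order, *Ebf2* with 27.5, 15.1 and 0.460, and *Hgf* with 20.0, 7.88 and 0.0209. All 5 genes were thus highest in high-score cells, as the choice required, and lowest in PC20. The log2 ratios of high-score over other cells were 3.15 for *Cyp26b1*, 2.06 for *Fbn2*, 1.62 for *St8sia1*, 1.35 for *Hgf* and 0.86 for *Ebf2*.

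Shares of cells with a UMI were compared after each cell was thinned to a common number of UMIs, which kept 902 high-score, 7945 other and 4474 PC20 cells and left out 93, 1010 and 275 shallower ones. A *Cyp26b1* UMI was found in 84.3% of thinned high-score cells, 27.8% of other cells and 0.872% of PC20 cells. Before thinning these shares were 85.7%, 38.8% and 2.25%. *Hgf* was found in 16.0% and *Ebf2* in 22.3% of thinned high-score cells, against 7.88% and 13.8% of the other cells. For scale, 16 genes that define leukocytes, oligodendrocytes, astrocytes, neurons or endothelium each had a UMI in at most 0.222% of thinned high-score cells, reached by *Csf1r*, and 0.428% of other cells, reached by *Pecam1*, which gives a low estimate of the background. The shares of the 5 genes in PC5 lay above that level in both groups. Genes seen in so few cells cannot show how much of the RNA of the 5 genes was background. In PC20 the 16 genes reached at most 0.0894% of thinned cells (*Pecam1*). There *Cyp26b1* (0.872%), *Ebf2* (0.425%) and *Fbn2* (0.358%) lay above that level, and *Hgf* (0.0224%) and *St8sia1* (0%) did not.

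**Figure D1:**
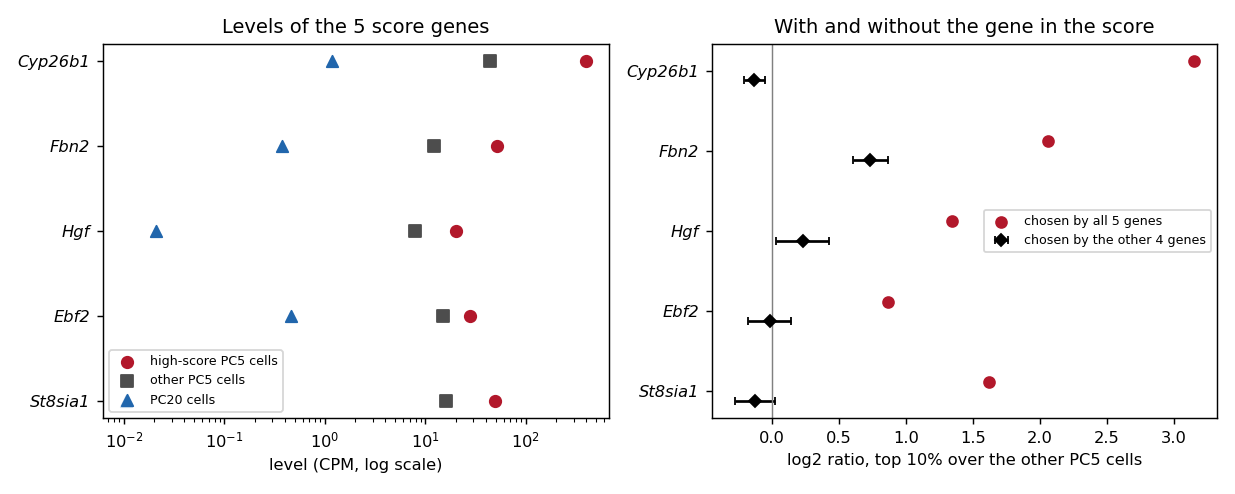
Left, CPM (log scale) of the 5 score genes in high-score PC5 cells (circles), other PC5 cells (squares) and PC20 cells (triangles). Right, log2 ratio of each gene between the top 10% and the rest when the score used all 5 genes (circles) and when that gene was left out of the score (diamonds, bars are 95% counting intervals): *Cyp26b1* goes from 3.15 to -0.13.

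Whether the 5 genes were high in the same cells was read by leaving each out of the score. In the top 10% of cells chosen by the other 4 genes, *Cyp26b1* had 72.0 CPM against 79.0 in the rest, a log2 ratio of -0.13 (-0.21 to -0.06). This ratio was -0.028 after thinning and 0.000122 with the top 10% taken within bins of depth. *St8sia1* had a ratio of -0.13 (-0.28 to 0.02) and *Ebf2* of -0.02 (-0.18 to 0.14), intervals that include 0. The *Ebf2* ratio was 0.19 after thinning, 0.25 in cells with no *Mki67* or *Top2a* UMI and 0.27 for the top 20%. *Hgf* kept a ratio of 0.23 (0.03 to 0.43). Of the 5, *Fbn2* had the highest ratio when left out, 0.73 (0.60 to 0.86), with 25.1 CPM in the chosen cells and 15.1 in the rest. The 5 genes were not all high in the same cells. Each gene's ratio was far lower once it was left out of the score, a fall that the rule itself brings about. With *Fbn2*, *Hgf*, *Ebf2* or *St8sia1* left out, *Cyp26b1* still carried most of the score, and 839 to 915 of the chosen cells were high-score cells. The ratios of these genes thus mainly read each of them against *Cyp26b1*.

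Pairs of genes were read in the thinned cells. For *St8sia1* and *Ebf2* they gave a different picture from the left-out ratios of -0.13 and -0.02, which mainly read these genes against *Cyp26b1*. Among 770 PC5 cells with an *Hgf* UMI, 26.8% also had an *St8sia1* UMI, against 13.1% of cells without *Hgf*. *Fbn2* was found in 17.9% and *Ebf2* in 20.0% of these *Hgf* cells, against 12.7% and 14.1% of cells without it. *Cyp26b1* ran the other way and was found in 27.0% of cells with and 34.2% of cells without *Hgf*. The same held for *St8sia1*, with *Cyp26b1* in 27.8% of cells with it and 34.6% of cells without it. *Cyp26b1* and *Fbn2* were found together slightly more often, with *Fbn2* in 14.1% of cells with and 12.6% of cells without a *Cyp26b1* UMI. *Hgf*, *St8sia1*, *Fbn2* and *Ebf2* were thus each more frequent in cells with any of the other 3, and *Cyp26b1* was less frequent in cells with *Hgf* or *St8sia1*.

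Across the genome high-score cells differed little from the other cells. Of 9354 genes with a UMI in at least 10% of either group, without the 5 score genes, 189 (2.02%) had a log2 ratio above 0.5 and 56 (0.599%) had a ratio under -0.5, while 9109 (97.4%) lay between. Ratios above 1 were found for 15 genes (0.16%) and under -1 for 5 genes (0.0535%). The median over all tested genes was 0.09, and after this median was subtracted the split was 108 above and 92 under. Of the 189 genes 56 met the detection minimum through the high-score cells only, and of the 56 lower genes 20 through the other cells only. The counts of 189 and 56 were 91 and 27 when cells were chosen and read on separate UMIs. They were 524 and 134 without *Cyp26b1* in the score. These counts describe cells picked by their own RNA and were not tested.

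The 15 named genes on the high side were those with the highest ratios among genes at 20 CPM or more in high-score cells. *Fst*, which encodes follistatin, a secreted protein that binds activins, had 45.7 CPM in high-score cells, 8.83 in other cells and 66.4 in PC20. The log2 ratio between the PC5 groups was 2.37 (2.26 to 2.48). A *Fst* UMI was found in only 12.7% of thinned high-score and 4.14% of other cells, so its UMIs sat in few cells at either level. Without thinning the shares were 16.6% and 6.23%, so *Fst* met the detection minimum through the high-score cells only. *Ptchd4*, a patched domain gene, had 22.4 CPM against 7.51, a ratio of 1.58 (1.43 to 1.73). *Cemip*, whose product is needed to break down hyaluronan, had 250.1 CPM against 109 and 0.152 in PC20, with a ratio of 1.20 (1.15 to 1.24). *Adamts5*, a protease that cleaves aggrecan and versican, had 74.7 CPM against 33.5, a ratio of 1.16 (1.08 to 1.24). *Cemip* was near 0 in PC20, whereas *Fst* and *Adamts5* (59.2 CPM) had higher levels there than in the other PC5 cells.

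The other 11 named genes on the high side had ratios between 0.73 and 1.01. *Kdr*, the main receptor of VEGF, had 23.4 CPM against 11.6, a ratio of 1.01 (0.87 to 1.15). *Amotl2*, an angiomotin family member linked to Hippo signalling, had 172 CPM against 87.2, and *Cavin2*, a caveola coat protein, 293 against 160.0. *Sorbs2*, an adaptor of the actin cytoskeleton, had 291 CPM against 175. *Ror1*, a receptor-like kinase that binds WNT5A, had a ratio of 0.94, the glypican gene *Gpc3* of 0.88, the tight junction gene *Cldn1* of 0.86 and the guidance ligand gene *Slit2* of 0.77. *Runx1t1*, a transcriptional corepressor, had a ratio of 0.93, the linker histone gene *Hist1h1b* of 0.85 and *Apold1* of 0.80.

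The named genes on the low side had 20 CPM or more in the other cells, a limit that the 5 genes under -1 did not meet. Those 5, named after their values were seen, were *Fam84a* (-1.31), *Nptx1* (-1.29), *Wnt7b* (-1.09), *Gda* (-1.08) and *Slc14a1* (-1.07), at 7.14 to 16.4 CPM in the other cells. At least the gene at 7.14 CPM met the detection minimum through the other cells only, which favours a low ratio. Whether the rest did so is not given here. *Prl2c3*, a proliferin of the prolactin family, had 66.7 CPM in high-score and 132 in other cells, a ratio of -0.99 (-1.06 to -0.91). Its near copy *Prl2c2* had 189 CPM against 281, a ratio of -0.57, and reads of such copies may be split unevenly, so each value is uncertain. *Serpinb2*, a serine protease inhibitor gene, had 55.3 CPM against 104, a ratio of -0.91. *Igfbp3*, a carrier of insulin-like growth factors, had 121 CPM against 202, a ratio of -0.74. *Nrep* (-0.89), the transcription cofactor gene *Lbh* (-0.88), the adducin gene *Add2* (-0.73), *S100a4* (-0.68), the protease gene *Klk8* (-0.67) and the adhesion gene *Nrcam* (-0.56) were also on this side. So were the interferon-inducible family members *Ifi207* (-0.75) and *Ifi209* (-0.62), the long noncoding RNA gene *Wincr1* and *Zfp703* (both -0.55).

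To separate choosing from reading, each cell's UMIs were split at random in 2 equal parts, cells were chosen on 1 part, and genes were read on the other. The score genes lost most by this, *Cyp26b1* going from 3.15 to 2.71, *Fbn2* from 2.06 to 1.48, *St8sia1* from 1.62 to 0.90, *Hgf* from 1.35 to 0.72 and *Ebf2* from 0.86 to 0.21. The other named genes moved less, *Ptchd4* to 1.56, *Cemip* to 1.11 and *Prl2c3* to -0.88. *Fst*, which had met the detection minimum through the high-score cells only, moved to 2.23. All 30 kept their sign and 26 of them stayed past 0.5 in size. These genes had been named from all UMIs of the same cells, including the part read here. The split therefore separates the choice of cells and not the choice of genes, and the kept signs are a description.

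**Figure D2:**
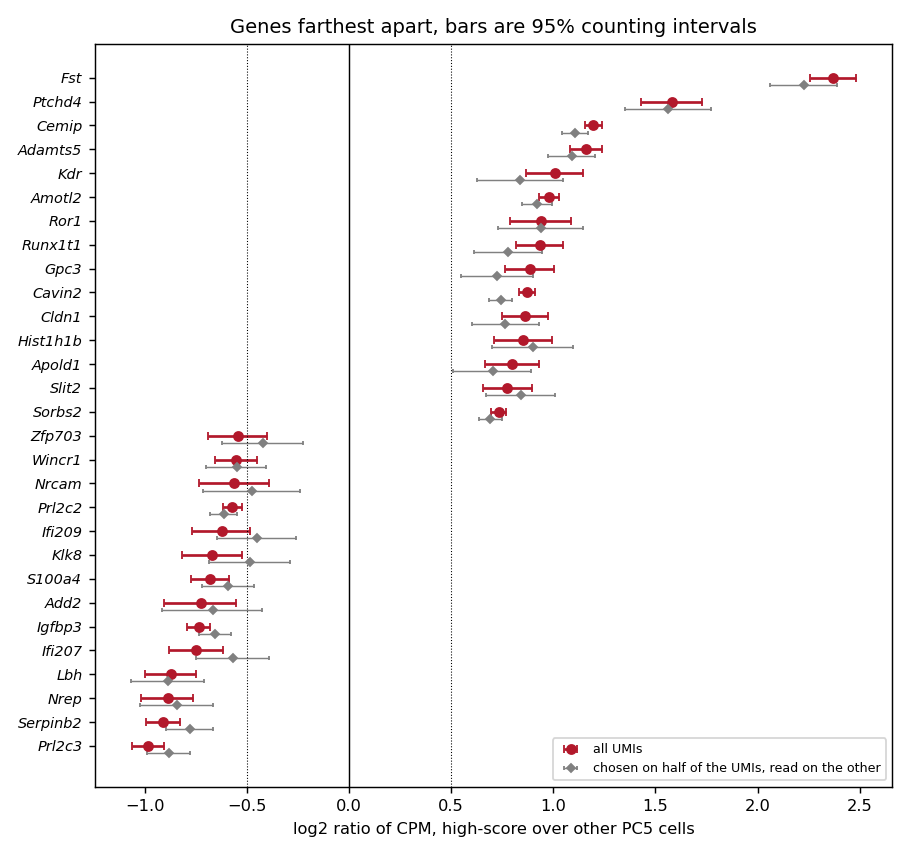
Log2 ratio of CPM in high-score over other PC5 cells for the 15 genes highest and 14 of those lowest by the naming rule, with 95% counting intervals. Circles use all UMIs and diamonds use cells chosen on 1 part of the UMIs and read on the other, and dotted lines mark -0.5 and 0.5: *Cemip* stands at 1.20 and 1.11, and *Fst*, at 2.37 and 2.23, met the detection minimum through the high-score cells only.

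The named genes were also read along the score. They had been named by their ratio in high-score cells, so their place at the top of the score follows from that choice. Cells with a score of 0 held a median of 16872 UMIs, those just above 0 25543.5 and the top 5% 20993. The part of depth was not tested. *Fst* had 7.14 CPM in cells with a score of 0, 5.73 in those above 0 and up to the median, 8.57 between the 50th and 75th percentiles, 16.9 between the 75th and 90th, 35.4 between the 90th and 95th and 56.1 in the top 5%. *Cemip* ran from 96.2 CPM at a score of 0 to 296 in the top 5%, and *Adamts5* from 30.6 to 85.6. In the other direction *Prl2c3* ran from 173 to 55.9 CPM and *Serpinb2* from 144 to 51.6.

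**Figure D3:**
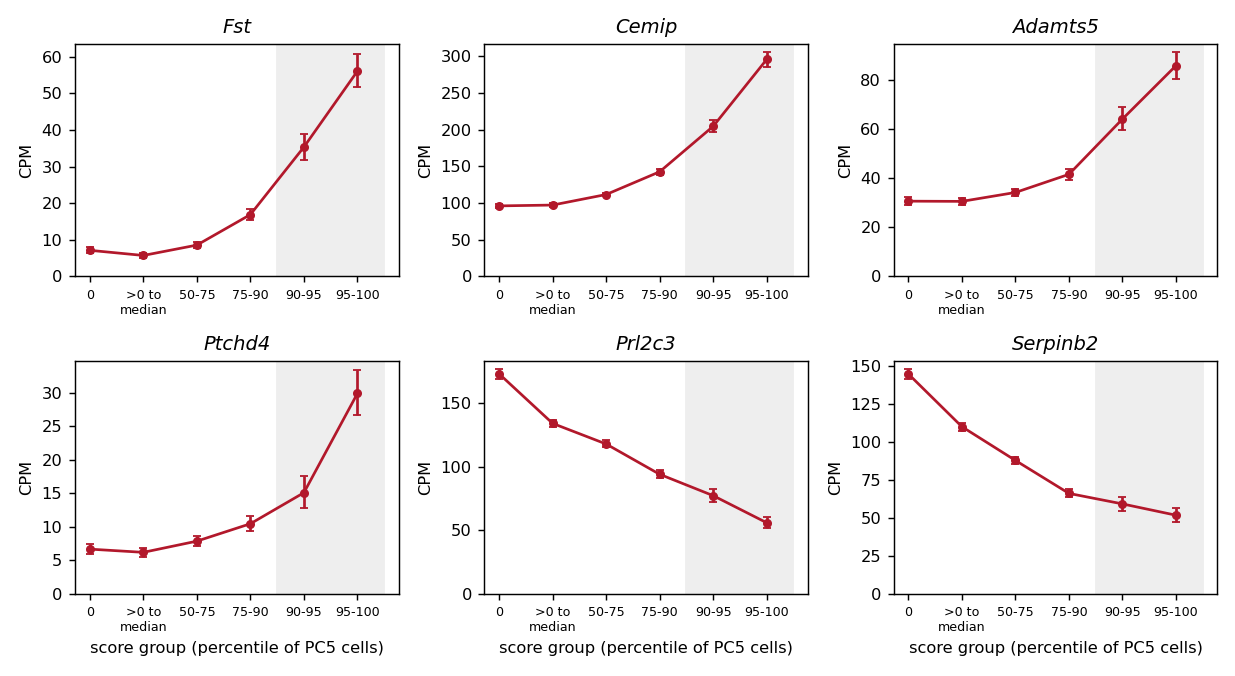
CPM of 6 named genes in PC5 cells grouped by score, from a score of 0 to the top 5%, with 95% counting intervals, and with high-score cells shaded. *Fst*, *Cemip*, *Adamts5* and *Ptchd4* are highest and *Prl2c3* and *Serpinb2* lowest in the top group, which the naming rule favours.

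The cells were then scored by *Cyp26b1* alone and, separately, by the other 4 genes, with 995 cells taken each time. The set chosen by *Cyp26b1* had medians of 22734 UMIs, 2.77% mitochondrial UMIs and 32.7% ribosomal protein UMIs. Medians of the set chosen by the other 4 genes were 19865 UMIs, 3.12% and 30.9%. The part of depth and quality in what follows was not tested. The *Cyp26b1* set shared 704 cells (70.8%) with the high-score cells and the set of the other 4 genes shared 376 (37.8%), and the sets had 96 cells (9.65%) in common, close to the 10% of cells that each set takes. *Cemip* had 256 CPM in the *Cyp26b1* set and 107 in the rest, a log2 ratio of 1.26, but 141 and 121 CPM, a ratio of 0.21, by the other 4 genes. *Fst*, which had met the detection minimum through the high-score cells only, had ratios of 2.48 and 0.20. *Adamts5* (1.24 and -0.19), *Cavin2* (1.05 and -0.15), *Amotl2* (1.09 and -0.07) and *Sorbs2* (0.83 and -0.06) had ratios above 0.5 by *Cyp26b1* and negative ratios by the other 4 genes, and ratios near 0 by the other 4 genes were also found for *Ptchd4* (1.67 and 0.10) and *Kdr* (1.19 and 0.00). *Lbh* (-1.26 and 0.17), *Add2* (-1.24 and 0.16) and *Nrep* (-1.22 and 0.12) had ratios under -0.5 by *Cyp26b1* and positive ones by the other 4 genes. These ratios are given in the order *Cyp26b1* first.

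The other 4 genes brought a different group of genes. The highest ratios in their set were those of *Il33*, an alarmin cytokine, at 1.75, *Postn*, the matrix protein periostin, at 1.52, *Ptn*, a heparin-binding growth factor, at 1.47, *Il11* at 1.37 and *Dio2*, which activates thyroid hormone, at 1.35. By *Cyp26b1* alone these were -1.43, -0.10, -0.87, -0.92 and -0.51. The WNT antagonist gene *Frzb* (1.16) and the matricellular gene *Sparcl1* (1.13) were also high by the other 4 genes, and -0.23 and -1.07 by *Cyp26b1*. On the low side *Prss23*, a serine protease gene, was at -1.32 by the other 4 genes and at 0.90 by *Cyp26b1*. *Serpinb2* (-1.23 and -0.60), *S100a4* (-1.02 and -0.49) and *Prl2c3* (-0.72 and -0.79), with the other 4 genes first, were lower by either score. *Apold1* (1.19 and 0.71), *Runx1t1* (0.82 and 0.68), *Slit2* (0.70 and 0.47) and *Gpc3* (0.51 and 0.69) were higher by either score.

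**Figure D4:**
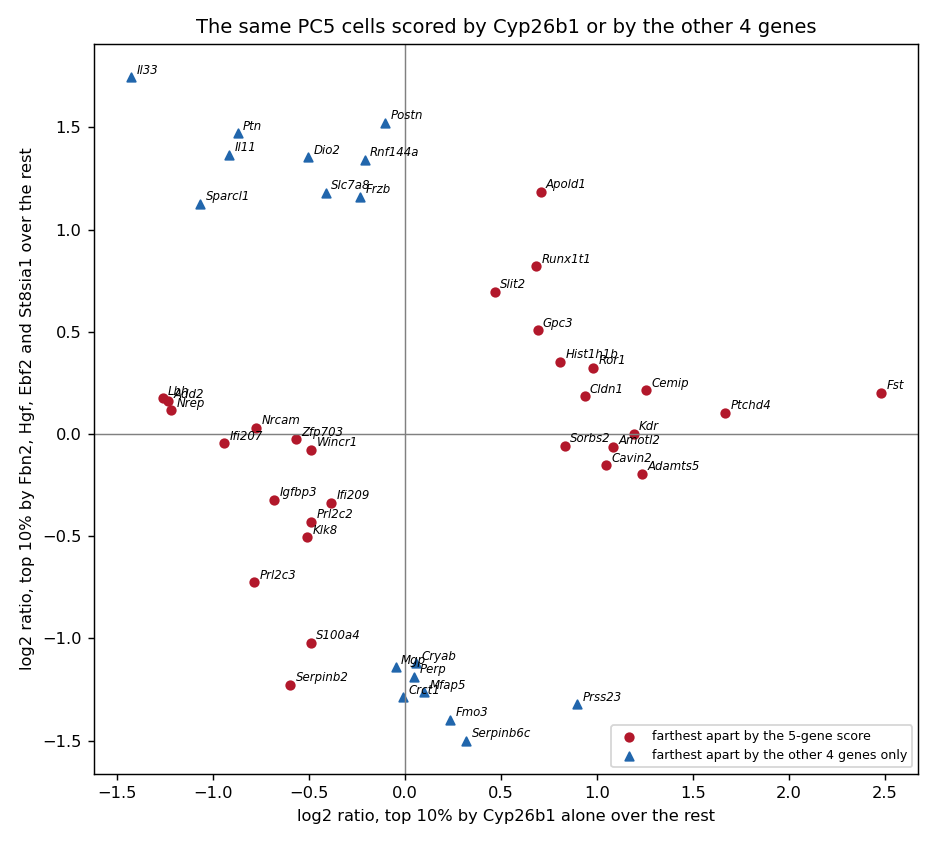
Log2 ratio of named genes between the top 10% of PC5 cells and the rest, chosen by *Cyp26b1* alone (x axis) or by *Fbn2*, *Hgf*, *Ebf2* and *St8sia1* (y axis). Circles are genes named from the 5-gene score and triangles are further genes farthest apart by the other 4 genes: *Cemip* lies at 1.26 and 0.21, and *Il33* at -1.43 and 1.75. Each group was picked by its own score, so its distance along that score carries no test.

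The high-score cells were also split by their lead gene. The lead gene was read from the score genes, so *Cyp26b1* and the other 4 trade off by construction, and the genes shown were picked from the 2 scores over largely the same cells. The values are a description and no further support for that split. The 728 cells led by *Cyp26b1* held a median of 22350.5 UMIs and the 225 led by another score gene a median of 17765 UMIs, and the part of depth in what follows was not tested. *Fst* had 53.7 CPM in the *Cyp26b1*-led cells and 15.3 in the others, and *Prss23* 224 and 46.8. *Cavin2* had 331 against 150.3 CPM and *Kdr* 26.7 against 11.6. *Il33* ran the opposite way with 18.6 against 117 CPM, as did *Postn* with 85.7 against 249.9, *Dio2* with 36.9 against 156 and *Frzb* with 24.8 against 73.2. The *Cyp26b1*-led cells held a median of 9 *Cyp26b1* UMIs and the cells led by another gene a median of 0.

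Members of the pathways of the 5 genes were read from lists, described by how many of their members with a UMI in at least 10% of either group passed 0.5, beside the 2.02% above and 0.599% under over all tested genes. Of 11 further retinoic acid genes tested, 0 were above 0.5 and 1 was under -0.5, with a median ratio of 0.13. The synthesis gene *Aldh1a2* had 63.4 CPM against 50.1, a ratio of 0.34. The retinol uptake receptor gene *Stra6* had 8.86 against 13.0, a ratio of -0.56, and the receptor genes *Rara*, *Rarb* and *Rarg* had ratios of 0.13, 0.14 and -0.17. Of 17 elastic fibre and microfibril genes only *Fbln5* passed, at 0.56, and *Fbn1*, the sister gene of *Fbn2*, had 261 CPM against 249, a ratio of 0.07. In the HGF pathway the receptor gene *Met* had 20.6 CPM against 18.2, a ratio of 0.17. Of the 6 genes tested there, 0 were above 0.5 and 1 was under -0.5. None of 11 other genes of ganglioside synthesis and breakdown passed either limit. The pathways of *Cyp26b1*, *Fbn2*, *Hgf* and *St8sia1* thus gave medians of 0.13, 0.00, 0.04 and -0.01 in that order, beside 0.09 for all tested genes.

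Among 26 further transcription factor genes of mural and mesenchymal cells, the list that goes with *Ebf2*, 1 was above and 1 under the limits. Their median ratio was 0.16. *Tbx18*, a factor that marks mural cells, had 173 CPM against 114, a ratio of 0.61. *Twist2*, which met the minimum through the other cells only, had 3.86 against 6.72, a ratio of -0.80, and *Foxc1*, a factor of brain mural cells and meninges, was at 0.48 with 145 against 104 CPM. Of 23 further secreted growth factor genes *Bmp4* was at 1.30 with 9.13 against 3.72 CPM, *Il6* at 0.56 and *Fgf2* at -0.60. *Bmp4* met the detection minimum through the high-score cells only, with a UMI in 13.4% of them and 6.48% of other cells, which favours a high ratio. *Fgf7*, a growth factor for epithelium, had 262 against 190.2 CPM, a ratio of 0.46, and *Vegfa* 143 against 179, a ratio of -0.32. Of 4 chemokine genes tested *Cxcl12* was at 0.59, whereas *Ccl2* was at -0.34 and *Ccl7* at -0.19.

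Contractile genes differed little, and the medians of the collagen and matricellular lists, 0.11 and 0.06, lay beside the 0.09 of all tested genes. Of 19 collagen genes *Col12a1* passed, at 0.85 with 13.9 against 7.71 CPM, and *Col3a1* had 1397 CPM against 1132, a ratio of 0.30. Of 12 matricellular genes *Postn*, at 0.70 with 124 against 76.3 CPM, and *Ctgf*, at 0.56 with 335 against 227 CPM, were above the limit. Other members had negative ratios, among them *Thbs2* (-0.38), *Col6a3* (-0.35), *Col5a3* (-0.31) and *Col7a1* (-0.23). Of 7 contractile genes 0 passed, with *Acta2* at 61.8 against 63.0 CPM and *Tagln* at 209 against 221. Cells in the top 10% by *Acta2* and *Tagln* made up 10.2% (8.34 to 12.2) of the high-score cells, and those in the top 10% by *Ccl2*, *Ccl7*, *Cxcl1* and *Cxcl5* 9.75% (7.98 to 11.8), near the 10% of all cells that each holds. The top 10% by *Postn* and *Thbs1* made up 16.2% (13.9 to 18.6).

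Marker genes of pericytes and of other cell types were checked against the name. *Pdgfrb* had 49.5 CPM in high-score and 44.0 in other cells, *Cspg4* 6.93 against 5.40 and *Notch3* 8.72 against 11.4, with ratios of 0.17, 0.36 and -0.39. The other 10 of 13 pericyte markers did not reach the detection minimum, among them *Rgs5* with 42 UMIs in all high-score cells, *Anpep* with 37, *Kcnj8* with 2, *Abcc9* with 1 and *Higd1b* and *Atp13a5* with 0. Several genes that define PCs in vivo were thus at or near 0 in these cultured cells. Of 5 fibroblast markers 0 passed the limits, with *Pdgfra* at 0.18 and *Dcn* at 0.29. Of 4 endothelial markers tested *Kdr* was above, whereas *Cdh5* had 137 CPM against 171, a ratio of -0.32, and *Pecam1*, *Cldn5*, *Tie1* and *Vwf* had 5, 0, 1 and 2 UMIs in all high-score cells. *Mbp*, the only oligodendrocyte marker tested, had 6.84 CPM against 3.37, a ratio of 1.02. It met the detection minimum through the high-score cells only (11.3% against 6.40% of cells), so this count supports nothing, and *Mobp*, *Mag* and *Mog* had 0 UMIs in high-score cells. The astrocyte markers split, *Slc4a4* at 0.67 with 216 against 136 CPM and *Aldh1l1* at -0.59, and *Aqp4* had 0 UMIs. Of 8 leukocyte markers 0 reached the 10% of cells, and *Ptprc*, *Cd48* and *Adgre1* had 0 UMIs in high-score cells. Markers of other lineages were thus not uniformly absent, since *Cdh5*, *Slc4a4* and the fibroblast genes were present in both PC5 groups while the genes listed here with 0 to 5 UMIs were at or near 0. *Kdr*, *Mbp* and *Slc4a4* were the only genes above 0.5 in their lists. Of the neuron markers only *Tubb3* (0.28) and *Stmn2* (0.14) were tested.

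Cell cycle genes and cell quality differed between high-score and other cells, with summed S phase genes at 428 against 327 CPM. All 14 S phase genes tested had positive ratios, with a median of 0.40 beside 0.09 for all tested genes. Positive ratios were common, since the naming rule chose from 3852 genes with a positive and 1604 with a negative ratio. *Cdc6* (0.73), *Mcm5* (0.52) and *Pcna* (0.52), which act in DNA replication, passed 0.5, as did 2.02% of all tested genes. *Cdc6* had met the detection minimum through the high-score cells only. Of 14 G2/M genes 0 passed, with a median of 0.18. Of 13 p53 targets and CDK inhibitor genes *Cdkn1c*, the inhibitor p57, passed at 0.67, whereas *Cdkn2a* had 457 CPM against 567, a ratio of -0.31. Of 9 immediate-early genes *Fosb* passed, at 0.55. A *Mki67* or *Top2a* UMI was found in 39.1% (35.9 to 42.4) of thinned high-score cells and 35.2% (34.1 to 36.2) of other cells. Median depth was 21223 UMIs and 4533 genes per high-score cell, against 21765 and 4442 per other cell. Mitochondrial UMIs made up a median of 2.91% against 2.55%, with all 13 mitochondrial genes at positive ratios and a median of 0.25, and ribosomal protein UMIs 31.7% against 33.3%. Where cells with a *Mki67* or *Top2a* UMI were left out, all 30 named genes kept their sign and 28 stayed past 0.5 in size. With totals made without mitochondrial and ribosomal protein genes all 30 stayed past 0.5, and over all tested genes 135 were above 0.5 and 66 under -0.5.

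The place of the high-score cells among all PC5 cells was read from expression without the 5 score genes. Of the 15 nearest neighbours of a high-score cell 19.6% were themselves high-score cells, against 7.67% for the other cells, where 10% of the cells are high-score cells by choice, and 13.5% of high-score cells had 0 such neighbours. Clustering without these genes gave 12 clusters, none of which was mostly high-score cells. Their share was highest in cluster 1, at 16.4% (14.8 to 18.2) of 1818 cells, and in cluster 8, at 15.6% (13.1 to 18.3) of 764 cells. Cluster 1 was led by *Cavin2*, *Thbs1* and *Sorbs2* and cluster 8 by the S phase genes *Ccne2* and *Hist1h1b*. Cluster 12, 41 cells led by *Pantr1*, *Olig1* and *Mlc1*, held 0 high-score cells, which allows a share of up to 7.32% by a limit of 3 counts and 8.60% by the exact interval.

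The *Cyp26b1* cells and the cells of the other 4 genes were spread over shared clusters in unequal shares. Cluster 1 held 34.6% of the *Cyp26b1*-led high-score cells and 16.9% of those led by another gene, and it took 18.3% of all cells. Cluster 7, led by *Trf*, *Mmp3* and *Ccl8*, held 26.2% of the high-score cells led by another gene and 5.63% of the *Cyp26b1*-led cells, with 9.10% of all cells. Cluster 6, led by *Stra6* and *Trp53i11*, held 16.9% and 2.47% in the same order. The top 10% by the other 4 genes took 20.0% of cluster 6 and 20.8% of cluster 7, where the top 10% by *Cyp26b1* took 2.49% and 6.19%. In cluster 1 the shares were reversed, 9.85% and 19.0%.

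**Figure D5:**
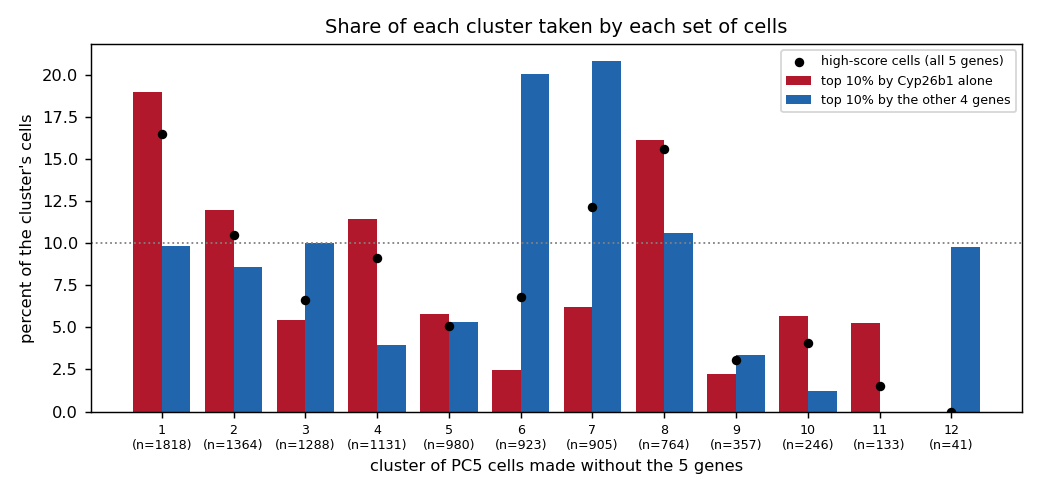
Percent of the cells of each PC5 cluster that were in the top 10% by *Cyp26b1* alone (left bars), in the top 10% by the other 4 score genes (right bars) or high-score cells (points), with the 10% of all cells as a dotted line. The *Cyp26b1* set takes its highest share in cluster 1 (19.0%), and the set of the other 4 genes in clusters 6 and 7 (20.0% and 20.8%).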

How the data were processed

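The authors made the deposited counts with Cell Ranger (5.0 in the submitters' processing notes, 5.0.1 in the file headers) on mm10, as UMI counts per gene and barcode from 3′ libraries, without normalization. Each library lists 31053 genes, of which 31011 identifiers were found in GENCODE M21. The kept cells totalled 223054273 PC5 UMIs and 191122251 PC20 UMIs. The cells, gene lists and comparisons were chosen with earlier results of these data known.

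UMIs were summed over groups of cells and scaled to CPM. Intervals were exact Poisson for CPM, conditional binomial for log2 ratios, which have no pseudocount, and Clopper-Pearson for shares. Genes were tested where 10% or more of high-score or other cells had a UMI. The genes named were the 5 score genes, the 15 highest and 15 lowest by ratio among genes at 20 CPM or more and seen in 10% or more of the cells of the group where they were higher, without mitochondrial, ribosomal protein and unnamed genes and pseudogenes, and list members. A gene of the lower group and a gene of the background list are not reported here, and leaving out the second lowers the background estimate. The genes named for the score of the other 4 genes follow the same rule with 10 each way, added after the data were seen, as was the score of *Cyp26b1* alone. Neighbours used 2000 variable genes and 15 components, with mitochondrial and ribosomal percentages regressed, and Leiden clusters a resolution of 0.8 (scanpy 1.11.5, scipy 1.17.1). No doublet caller was run, and cells over 2 times the median UMIs were left out as an alternative. Calculations were tested on simulated counts. Other filters, depths, score sizes, score weights, left-out score genes and centring were tried.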

Additional observations from a re-analysis of the deposited data

Results flagged for a closer look

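Barcodes left out by the cell filter were not used in any comparison but held UMIs of the 5 score genes. The 679 PC5 barcodes had a median of 1106 UMIs and 60 UMIs of these genes, which is 64.9 CPM (49.5 to 83.6). The level was 139 CPM in all kept PC5 cells, 95.6 CPM in the other cells and 2.05 CPM in kept PC20 cells. The score limit was reached by 47 of them, but at this depth a single UMI of the 5 genes usually passes it.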

How the results depend on the processing

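Each library stands alone and cells are not replicates, so the spread between cultures is unknown, and low counts limit the score of single cells. No paired analysis was possible because each passage has 1 library. Of 127 values of the main comparisons under an alternative, 83 stayed within their limits and 44 moved. Against 189 genes above 0.5 and 56 under -0.5, the counts were 104 and 31 after thinning, 91 and 27 when chosen and read on separate UMIs, 377 and 129 for the top 5%, 96 and 31 for the top 20%, 354 and 106 with each score gene divided by its mean, 524 and 134 without *Cyp26b1* in the score, 303 and 108 with a detection minimum of 5%, 91 and 25 with one of 20%, 15 and 5 at limits of 1 and -1, and 108 and 92 after centring. Without *St8sia1* 97 were under -0.5, and by *Cyp26b1* alone, a score chosen after seeing the data, 161. The left-out ratio of *Cyp26b1* was -0.028 after thinning, 0.000122 with the top 10% taken within bins of depth and -0.22 for the top 5%. That of *Fbn2* was 0.95 both without cycling cells and for the top 5%, and that of *Hgf* 0.47 without cycling cells. That of *Ebf2* was 0.19 after thinning, 0.25 without cycling cells and 0.27 for the top 20%, and that of *St8sia1* 0.056 for the top 20%. For the top 5% and top 20% the overlaps were 6.22% and 17.3% with contractile, 9.44% and 25.7% with matrix and 4.22% and 19.4% with chemokine cells, and the neighbour share 14.3% and 29.9%. These shares scale with the number of cells taken. With divided score genes the contractile overlap was 5.13% and the chemokine overlap 14.3%, without cycling cells the matrix overlap was 19.2%, and after thinning the chemokine overlap was 7.68%. Without *Cyp26b1* in the score 8 of the 30 named genes changed sign, *Adamts5* (-0.19), *Amotl2* (-0.065), *Cavin2* (-0.15), *Sorbs2* (-0.057), *Nrep* (0.12), *Lbh* (0.17), *Add2* (0.16) and *Nrcam* (0.029), and *Add2* was also at 0.12 with divided score genes. Of the 30, only 9 were past 0.5 in their direction without *Cyp26b1* in the score and 14 with divided score genes. Under the other settings run on them all 30 kept their sign, with 23 to 30 past 0.5. The 30 were named from these same cells, so the kept signs hold no independent support. Apart from the settings that change the set of cells or genes by construction, the cause was not tested.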
